A study of Rattus norvegicus with 8 samples.

Results

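The Rab GTPases measured here were the 97 probe sets, of 31042 that were not manufacturer's controls, whose single gene symbol is Rab followed by a number and at most a letter and a further digit. They covered 56 genes, of 14217 genes named by a probe set with 1 symbol. The livers came from male Goto-Kakizaki (GK) rats, an inbred strain with type 2 diabetes and no obesity, 18 weeks old. All 8 rats were of this strain, and no non-diabetic strain was compared. Of the 8 rats, 4 had been fed AIN-93G, a purified diet, with an extract of persimmon peel for 12 weeks (the persimmon peel diet), and 4 had been fed AIN-93G alone for the same time (the control diet). Each liver was hybridised to 1 single-colour Affymetrix array, whose signal is a linear intensity per probe set.

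Rab proteins are small GTPases that mark the membranes of the cell. In the GTP form a Rab sits on a membrane and recruits effectors, such as tethers, motors and sorting complexes, and after hydrolysis of GTP it is lifted off by a GDP dissociation inhibitor. In hepatocytes Rabs carry secreted proteins and lipoproteins through the Golgi, take up receptors at the sinusoidal face, move transporters to the bile canaliculus and meet the lipid droplet.

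Of the 97 probe sets, 66 were bright enough to be tested, and these covered 39 genes. The other 31 sets lay in the dimmer 50% of the array and reached at most 42.2 signal units on any array. No set was tested for 17 genes: Rab3a, Rab3b, Rab3c, Rab3d, Rab26, Rab27b and Rab37, which are Rabs of regulated secretion, and Rab6b, Rab7b, Rab9b, Rab15, Rab19, Rab23, Rab25, Rab33a, Rab36 and Rab39a. In a whole-liver extract, fewer cells of a type and less RNA per cell cannot be told apart for any of these genes.

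Transcripts of the Golgi Rabs Rab1a and Rab6a, of the early endosome Rabs Rab5a and Rab5b and of Rab10, a Rab of transport to the cell surface, were lower on the persimmon peel diet in at least 1 probe set. In the limma comparison, 7 of the 66 tested sets (10.6%) were lower at a Benjamini-Hochberg adjusted p under 0.05, where 4.53% of all 15521 tested sets were lower. These 5 genes gave 1 set each, save Rab6a and Rab5b with 2 each. In the same test 0 Rab sets were higher, against 0.425% of all tested sets, and at an unadjusted p under 0.05 there were 16 lower and 1 higher, or 24.2% and 1.52%, against 13.4% and 6.19% of all. Groups did not overlap in 12 sets with the persimmon peel diet below and in 2 with it above, or 18.2% and 3.03% of the tested Rab sets, against 10.0% and 2.87% of all tested sets. The log2 fold change had a median of -0.10 over the 66 sets and of -0.01 over all tested sets, and it was negative in 39 of the 66 (59.1%), against 51.4% of all. These shares of all tested sets are not for the same mix of sets. Sets other than the brightest of a gene (dimmer sets) were 27 of the 66, and 2981 of the 12155 tested sets with 1 symbol. Over the whole array 13.8% of dimmer sets were lower, against 1.93% of brightest sets. Leaving out 1 array gave 3 lower sets without replicate 1 of the persimmon peel diet, 4 without control replicate 1 and 3 without control replicate 4. With replicates 1 and 3 of the persimmon peel diet both left out there were 0 lower sets, in a fit on 6 arrays. With no filter on dim sets there were 5, without Rab1a and the dimmest set of Rab5b.

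**Figure D1:**
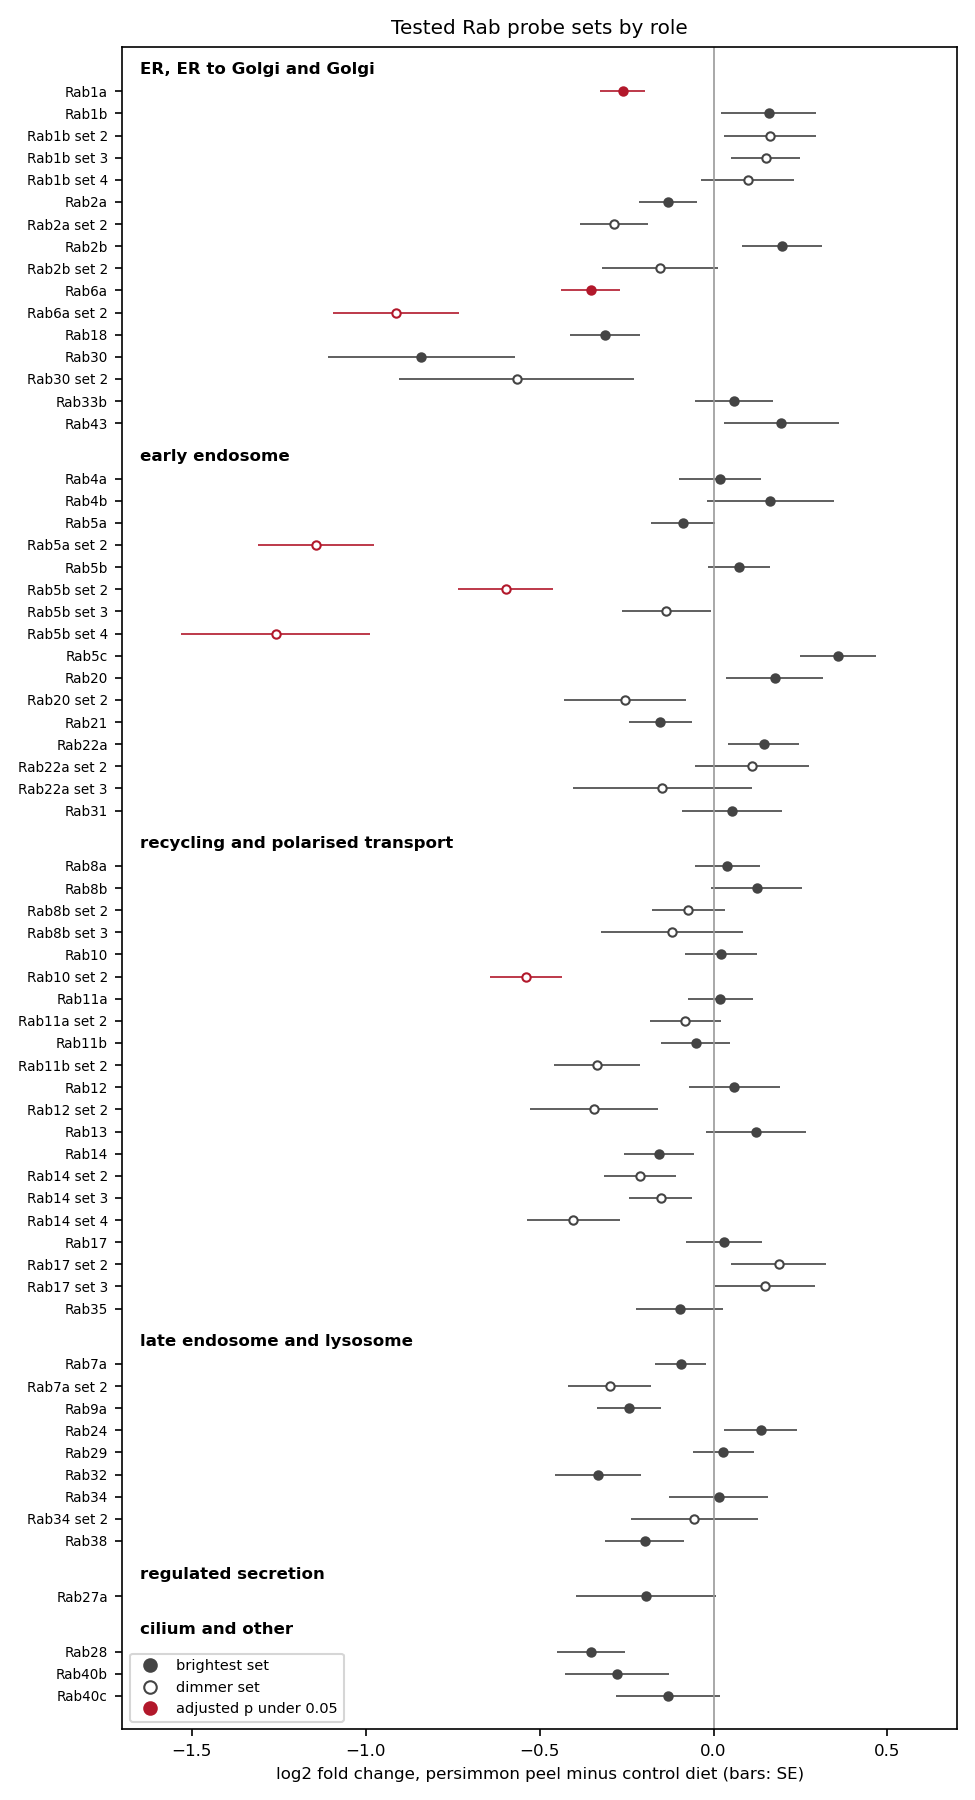
Log2 fold changes (persimmon peel minus control diet, horizontal axis, with SE bars) of the 66 tested Rab probe sets, 1 row each, grouped by role. Filled points are the brightest set of a gene, open points its dimmer sets, and red marks the 7 sets at an adjusted p under 0.05, which all lie left of 0 and of which 5 are open.

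The calls were unevenly spread over the sets of a gene. Of the 39 brightest sets, 1 per gene, 2 were lower and 0 higher (7 and 1 at an unadjusted p under 0.05), and the median of their log2 fold changes was 0.02, next to 1.93% lower, 0.469% higher and a median of 0.01 for the brightest sets of all 9174 tested genes. Of the 27 dimmer sets, 5 were lower and 0 higher (9 and 0 at an unadjusted p under 0.05), and their median was -0.15, next to 13.8% lower, 0.302% higher and a median of -0.12 for the 2981 dimmer sets of all genes. Signal ranks the sets of 1 gene here and is not a transcript level, since each set has its own probes. When the brightest set of each gene alone was fitted, 0 Rab sets passed, with adjusted p of 0.0627 for Rab1a and 0.0603 for Rab6a.

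Control sets that read different parts of 1 transcript were compared too, and the beta-actin ratios lay lower on the persimmon peel diet without overlap. None of the 4 ratios had an adjusted p under 0.05 in an exact permutation test. These values stand beside every call below. For beta-actin the middle set over the 3′ set, as a log2 ratio, was -1.06 ± 0.11 on the persimmon peel diet and -0.76 ± 0.02 on the control diet (SD, n = 4 each), with no overlap (two-sided exact permutation p = 0.0286, which no split of 4 against 4 can go below, and 0.0571 adjusted over 4 ratios). The 5′ set over the 3′ set of beta-actin was -1.97 ± 0.22 on the persimmon peel diet and -1.68 ± 0.12 on the control diet (SD, n = 4 each). These groups nearly touched without overlap, with replicate 1 at -1.823 on the persimmon peel diet and at -1.822 on the control diet (exact p = 0.0286, adjusted 0.0571). For GAPDH the middle to 3′ ratio was -0.59 ± 0.05 on the persimmon peel diet and -0.58 ± 0.03 on the control diet (SD, n = 4 each), at an exact p of 0.857. Its 5′ to 3′ ratio was -0.43 ± 0.08 on the persimmon peel diet and -0.29 ± 0.10 on the control diet (SD, n = 4 each), lower in the mean as for beta-actin but with overlap (exact p = 0.0857, adjusted 0.114). When the fit took the beta-actin ratio as a covariate, which itself differs between the diets, 0 Rab sets were lower and 0 were higher. The hepatocyte markers, summed over 7 tested genes, ran from 52333 to 56360 signal units on the persimmon peel diet and from 57468 to 60131 on the control diet. Of their 12 tested sets 2 were lower, of Tat and the dimmer set of Cps1, and 0 were higher, with 5 lower and 1 higher at an unadjusted p under 0.05. The 1 higher was the brightest set of Hnf4a (log2 fold change 0.23, SE 0.08, adjusted p = 0.127), and the other 2 sets of that gene had -0.38 and -0.15. No set was called in limma for the markers of macrophages (8 genes), endothelium (5), stellate cells (6), bile duct (1), lymphocytes (2), red cells (2) or platelets (2), where 1 of 30 sets was lower and 1 higher at an unadjusted p under 0.05. Their summed signals overlapped between the diets for each cell type, as for the macrophage genes with 6789 to 9384 on the persimmon peel diet and 6405 to 7729 on the control diet. No neutrophil marker was bright enough to be tested. The part of RNA quality or of cell make-up in the Rab results was not tested.

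The Rabs of the endoplasmic reticulum and the Golgi had 16 tested sets in 9 genes, of which 3 were lower and 0 higher (6 and 0 at an unadjusted p), with a median log2 fold change of -0.14. Of all tested sets 4.53% were lower and 0.425% higher, or 13.4% and 6.19% at an unadjusted p under 0.05. Rab1a, which with Rab1b controls transport from the endoplasmic reticulum to the Golgi, was read by 1 set. Its signals were 3433, 3752, 3340 and 3432 on the persimmon peel diet, against 4166, 4074, 4132 and 4343 on the control diet. All 4 livers of the persimmon peel diet lay below all 4 controls, and the log2 fold change was -0.26 (SE 0.06, limma adjusted p = 0.03). The Rab1a call held in 1 of 8 fits that each left out an array, the one without persimmon peel diet replicate 2, and in the other 7 the adjusted p was 0.054 to 0.102. It also ended after quantile normalization (adjusted p = 0.0988) or median centring (0.0503), with no filter (0.109) and with no intensity trend (0.147). The 4 sets of Rab1b had log2 fold changes between 0.10 and 0.16 and did not pass (adjusted p of 0.427 to 0.732). Of these 4 sets, 3 are annotated to the same sequence record, so they are not independent readings. The third set of Rab1b by signal read 351, 359, 344 and 353 on the persimmon peel diet, against 321, 331, 280 and 340 on the control diet, without overlap.

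Rab6a, which works at the Golgi in transport within it and back to the endoplasmic reticulum, was the Rab gene with both of its tested sets lower. The brighter set had signals of 815, 957, 923 and 977 on the persimmon peel diet, against 1200, 1140, 1132 and 1211 on the control diet, and it fell by 0.35 on the log2 scale (SE 0.08, adjusted p = 0.0271). In the dimmer set the livers of the persimmon peel diet gave 85.2, 117, 75.4 and 61.1, against 179, 127, 148 and 172 for the controls, and the log2 fold change was -0.91 (SE 0.18, adjusted p = 0.0102). Neither set overlapped between the diets. The difference between the sets did not pass (log2 difference -0.56, SE 0.19, adjusted p = 0.0516), but passed on leaving out replicate 2 of the persimmon peel diet (0.00851) or of the control diet (0.0442), after quantile normalization (0.0311), in the upper 30% by signal (0.038) and with array weights (0.0491). The call of the brighter set ended without persimmon peel diet replicate 1 and without any 1 of the 4 controls (adjusted p of 0.0514 to 0.0955), and with no intensity trend (0.0781), while that of the dimmer set held in all 8 such fits.

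The other Golgi and endoplasmic reticulum Rabs did not pass. Rab2a, which acts between both compartments, had log2 fold changes of -0.13 in the brighter and -0.29 in the dimmer set (adjusted p of 0.403 and 0.106). The dimmer set read 790, 747, 864 and 811 on the persimmon peel diet, against 991, 881, 917 and 1144 on the control diet, without overlap. Rab2b, its close paralog, read 358, 358, 448 and 402 on the persimmon peel diet, against 311, 346, 311 and 399 on the control diet in its brighter set, with overlap (log2 fold change 0.20, SE 0.11, adjusted p = 0.364). Its dimmer set went the other way without passing (log2 fold change -0.15, SE 0.17, adjusted p = 0.65). The difference of the 2 sets did not overlap between the diets and did not pass (log2 difference -0.35, SE 0.16, adjusted p = 0.14). For Rab18, which sits on lipid droplets and the endoplasmic reticulum, the signals were 698, 771, 652 and 848 on the persimmon peel diet, against 862, 849, 941 and 1026 on the control diet. The highest liver of the persimmon peel diet lay just under the lowest control (log2 fold change -0.31, SE 0.10, adjusted p = 0.0943). Rab30 is a Golgi Rab, and its dimmer set had the largest SE of any tested Rab set. The brighter set read 68.9, 138, 162 and 226 on the persimmon peel diet, against 231, 205, 229 and 329 on the control diet, so that the highest liver of the persimmon peel diet reached into the control range (log2 fold change -0.84, SE 0.27, adjusted p = 0.0892). The dimmer Rab30 set differed by -0.57 on the log2 scale (SE 0.34, adjusted p = 0.375), and without persimmon peel diet replicate 4 the brighter set passed (adjusted p = 0.0263).

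The early endosome Rabs had 16 tested sets in 9 genes, with 3 lower and 0 higher (3 and 1 at an unadjusted p) and a median log2 fold change of -0.03. Among all tested sets the shares were 4.53% lower and 0.425% higher (13.4% and 6.19% at an unadjusted p). The 3 lower sets all belonged to Rab5a and Rab5b, and all were dimmer sets, of which 13.8% were lower over the whole array. Rab5 drives the fusion of early endosomes, and its 3 isoforms Rab5a, Rab5b and Rab5c come from separate genes. In the dimmer set of Rab5a the livers of the persimmon peel diet had 74.0, 95.4, 61.1 and 76.4, against 194, 128, 161 and 196 in the controls. This was the smallest p of any Rab set (log2 fold change -1.14, SE 0.17, adjusted p = 0.00251), and the call held with each array left out in turn. The brighter Rab5a set read 541, 557, 633 and 639 on the persimmon peel diet, against 611, 658, 606 and 639 on the control diet, with overlapping groups (log2 fold change -0.09, SE 0.09, adjusted p = 0.636). The difference between both sets was itself past the threshold (log2 difference -1.06, SE 0.19, adjusted p = 0.004).

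Rab5b had 4 tested sets, and 2 of them were lower. Its brightest set read 1023, 944, 1106 and 1005 on the persimmon peel diet, against 890, 1051, 916 and 1021 on the control diet (log2 fold change 0.07, SE 0.09, adjusted p = 0.691). The second set by signal read 168, 250, 170 and 162 on the persimmon peel diet, against 289, 278, 258 and 292 on the control diet. There persimmon peel diet replicate 2 lay apart from its 3 group mates and near the lowest control (log2 fold change -0.60, SE 0.14, adjusted p = 0.0218). The dimmest tested set gave 26.0, 44.7, 36.1 and 15.9 on the persimmon peel diet, against 70.5, 54.7, 76.5 and 74.2 on the control diet (log2 fold change -1.26, SE 0.27, adjusted p = 0.016). Its mean on the persimmon peel diet, 30.7 units, lay below 34.4, the smallest mean over all 8 arrays that was tested, so it was tested only through its level on the control diet, and with no filter it did not pass (adjusted p = 0.0538). Against the brightest set, both differences passed (log2 difference -0.67, SE 0.16, adjusted p = 0.0135, and -1.33, SE 0.27, adjusted p = 0.00639), the -1.33 resting on the dimmest set. For the -0.67 the groups overlapped, with replicate 2 at -1.918 on the persimmon peel diet and at -1.920 on the control diet. The -0.67 did not pass with no filter (0.0513) or on leaving out both replicate 1 and replicate 3 of the persimmon peel diet (0.152). The third set by signal did not (log2 fold change -0.14, SE 0.13, adjusted p = 0.593). Neither lower set passed without persimmon peel diet replicate 1 (adjusted p = 0.076 and 0.0528 for the second and the dimmest) or without control diet replicate 4 (0.0759 and 0.0613). The second set was also lost when replicate 3 (0.0552) or 4 (0.0631) of the persimmon peel diet or replicate 1 of the control diet (0.0617) was left out. It was lost with no intensity trend too (0.051). The differences for Rab5b share its brightest set and are not independent.

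Rab5c was the Rab gene with the largest positive log2 fold change. Its 1 set read 300, 280, 333 and 309 on the persimmon peel diet, against 230, 212, 241 and 272 on the control diet, and every liver of the persimmon peel diet lay above every control. It did not pass (log2 fold change 0.36, SE 0.11, adjusted p = 0.0757) except after quantile normalization (0.39, adjusted p = 0.0289). Among the other early endosome Rabs, Rab21 read 462, 427, 496 and 485 on the persimmon peel diet, against 513, 533, 505 and 526 on the control diet (log2 fold change -0.15, SE 0.09, adjusted p = 0.37). Rab4a, Rab4b, Rab20, Rab22a and Rab31 had log2 fold changes between -0.25 and 0.18 over their tested sets, all with overlapping groups.

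**Figure D2:**
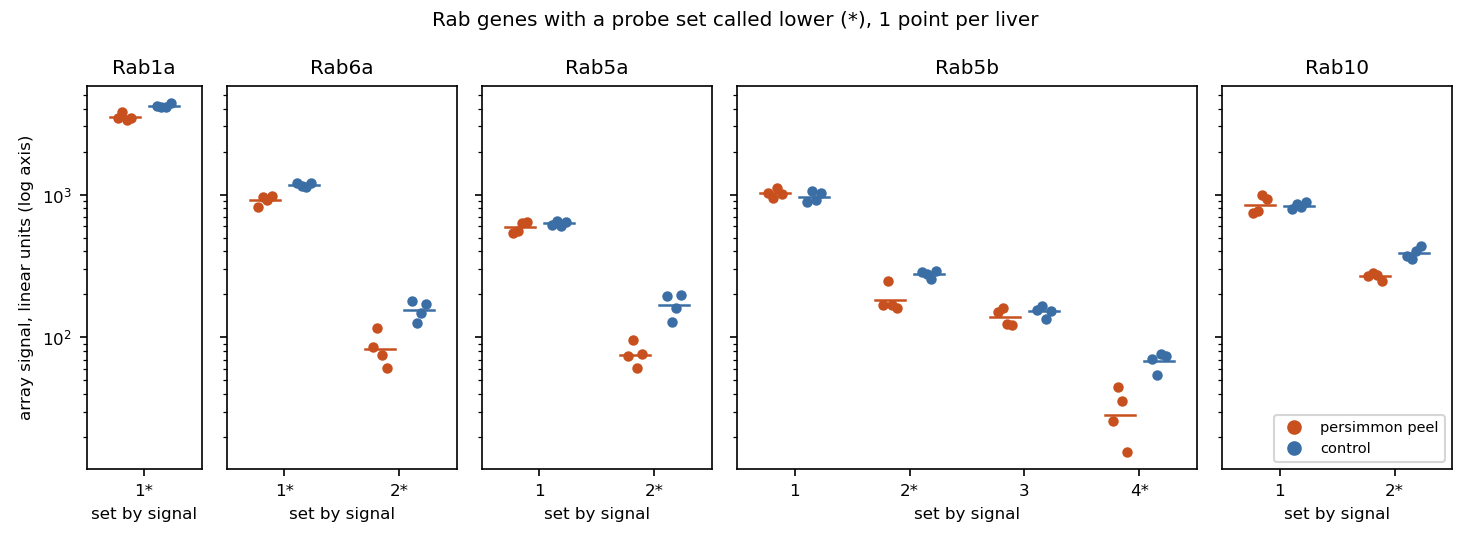
Signal (linear units on a log axis) of every tested probe set of the 5 Rab genes with a lower set, 1 point per liver, persimmon peel diet left of control diet, with bars at the geometric mean. Asterisks mark the sets at an adjusted p under 0.05, and in Rab5a, Rab5b and Rab10 the brightest set overlaps between the diets.

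The promoters of Rab1a and Rab6a, whose brightest sets were lower, and of the 3 Rab5 isoforms, of which Rab5a and Rab5b had a lower set, are printed as the 250 bases before the annotated start, from RefSeq on GRCr8, which is of a BN/NHsdMcwi rat and not of the GK strain. Capitals mark matches on either strand to CCAAT (the CCAAT box), GGGCGG (the GC box), CACGTG (an E-box) and TGACGTCA (the cAMP response element), motifs that do not contain one another. Rab1a lies at chr14:98623427-98623676 on the plus strand, Rab6a at chr1:164369783-164370032 on the plus strand, Rab5a at chr9:6720877-6721126 on the plus strand, Rab5b at chr7:1712737-1712986 on the minus strand and Rab5c at chr10:86166450-86166699 on the minus strand.
Rab1a: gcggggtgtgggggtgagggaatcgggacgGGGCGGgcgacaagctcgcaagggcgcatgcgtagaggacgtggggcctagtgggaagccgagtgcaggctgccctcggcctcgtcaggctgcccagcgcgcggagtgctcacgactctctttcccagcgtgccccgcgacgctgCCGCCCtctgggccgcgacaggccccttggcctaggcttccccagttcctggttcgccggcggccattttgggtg
Rab6a: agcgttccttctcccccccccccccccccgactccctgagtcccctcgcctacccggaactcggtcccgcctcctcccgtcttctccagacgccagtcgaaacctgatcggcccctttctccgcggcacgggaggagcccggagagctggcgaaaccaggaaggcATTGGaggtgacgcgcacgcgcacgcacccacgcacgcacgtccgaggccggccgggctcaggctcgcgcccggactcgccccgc
Rab5a: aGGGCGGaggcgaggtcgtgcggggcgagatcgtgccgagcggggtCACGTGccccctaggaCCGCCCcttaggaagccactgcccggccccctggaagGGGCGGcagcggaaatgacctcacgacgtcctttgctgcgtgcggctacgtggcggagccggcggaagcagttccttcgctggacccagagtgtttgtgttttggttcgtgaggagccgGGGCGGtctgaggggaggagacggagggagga
Rab5b: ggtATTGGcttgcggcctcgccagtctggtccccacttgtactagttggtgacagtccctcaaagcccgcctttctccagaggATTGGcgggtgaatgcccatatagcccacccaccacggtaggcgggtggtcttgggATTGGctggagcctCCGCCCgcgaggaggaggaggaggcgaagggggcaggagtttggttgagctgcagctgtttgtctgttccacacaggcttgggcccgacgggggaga
Rab5c: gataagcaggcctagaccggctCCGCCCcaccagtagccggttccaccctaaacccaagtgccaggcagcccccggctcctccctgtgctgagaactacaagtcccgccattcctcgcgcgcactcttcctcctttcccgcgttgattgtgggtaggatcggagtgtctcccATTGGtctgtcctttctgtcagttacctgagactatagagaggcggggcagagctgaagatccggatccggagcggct
The GC box occurred 4 times before Rab5a, 2 times before Rab1a, 1 time each before Rab5b and Rab5c and 0 times before Rab6a. Of the 46 promoters found for 45 member genes, 35 (76.1%) held a GC box, against 30.5% of 33469 promoters of the table. The CCAAT box was found 3 times before Rab5b, 1 time each before Rab5c and Rab6a and not before the others, and 15 member promoters (32.6%) held it, against 34.0% of all. Rab5a held the only E-box of these 5, a motif in 3 member promoters (6.52%) and 5.59% of all. The cAMP response element was in none of the 5, in 1 member promoter (2.17%) and in 1.59% of all. These counts describe letters in this window. The 5 printed windows held from 60.4% (Rab5c) to 72.4% (Rab6a) G or C. Member promoters and those of the table were not matched in base composition. Rab1b, Rab2a, Rab2b, Rab22a, Rab23, Rab24, Rab26, Rab33a, Rab36, Rab37 and Rab38 had no matched promoter.

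Rabs of recycling, insulin-regulated and polarised transport had 21 tested sets in 10 genes, with 1 lower and 0 higher (3 and 0 at an unadjusted p) and a median log2 fold change of -0.07. The shares of all tested sets were 4.53% lower and 0.425% higher (13.4% and 6.19% at an unadjusted p), and 13.8% of dimmer sets were lower. The lower set was of Rab10, a Rab of insulin action that carries glucose transporter vesicles to the surface of fat cells. This dimmer set read 268, 282, 273 and 250 on the persimmon peel diet, against 372, 351, 403 and 439 on the control diet, and it fell by 0.54 on the log2 scale (SE 0.10, adjusted p = 0.0089), which passed with each array left out. In the brighter Rab10 set the signals were 744, 767, 991 and 925 on the persimmon peel diet, against 794, 860, 813 and 887 on the control diet (log2 fold change 0.02, SE 0.10, adjusted p = 0.933). The difference between the sets passed (log2 difference -0.56, SE 0.13, adjusted p = 0.0119). Rab8a, which like Rab10 is controlled by the insulin-regulated proteins Tbc1d4 and Tbc1d1, had 498, 440, 518 and 452 on the persimmon peel diet, against 452, 485, 448 and 468 on the control diet, in its 1 set (log2 fold change 0.04, SE 0.09, adjusted p = 0.854). For Rab14, another Rab of this pathway, all 4 tested sets had negative log2 fold changes, of -0.16, -0.21, -0.15 and -0.40 from the brightest to the dimmest. None passed (adjusted p of 0.0984 for the dimmest), although the dimmest passed without persimmon peel diet replicate 2 (0.035). Rab11a, the Rab of recycling endosomes, had log2 fold changes of 0.02 and -0.08, and Rab17, an epithelial Rab, of 0.03, 0.19 and 0.15. Rab11b had -0.05 in its brighter set and -0.34 in its dimmer set (SE 0.12, adjusted p = 0.143). For Rab12 the brighter set had 0.06 and the dimmer set -0.34 (SE 0.18, adjusted p = 0.324).

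Rabs of late endosomes, lysosomes and related organelles had 9 tested sets in 7 genes, and 0 were lower or higher in limma, with a median log2 fold change of -0.09. At an unadjusted p under 0.05, 3 were lower and 0 higher, 1 set each of Rab7a, Rab9a and Rab32. Of all tested sets 13.4% were lower and 6.19% higher at that p, and 4.53% and 0.425% after adjustment. Rab7a, which drives late endosomes to lysosomes, differed by -0.09 on the log2 scale in its brighter set (SE 0.07, adjusted p = 0.504). Its dimmer set read 490, 654, 464 and 643 on the persimmon peel diet, against 634, 677, 699 and 727 on the control diet, and replicates 1 and 3 of the persimmon peel diet were the low ones (log2 fold change -0.30, SE 0.12, adjusted p = 0.17). Rab9a, which returns cargo to the Golgi, overlapped between the diets (log2 fold change -0.24, SE 0.09, adjusted p = 0.152). Rab32, of mitochondria and lysosome-related organelles, read 106, 124, 127 and 120 on the persimmon peel diet, against 147, 130, 168 and 157 on the control diet, without overlap (log2 fold change -0.33, SE 0.12, adjusted p = 0.142). For its close relative Rab38 the groups overlapped (-0.20, SE 0.11, adjusted p = 0.36).

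Of the remaining members, Rab28 came nearest to the threshold. This Rab, known from cilia of photoreceptors, read 350, 342, 305 and 313 on the persimmon peel diet, against 385, 406, 437 and 442 on the control diet. The groups lay apart (log2 fold change -0.35, SE 0.10, adjusted p = 0.054). Rab27a, the exocytosis Rab, was the 1 Rab of regulated secretion with a tested set (log2 fold change -0.19, SE 0.20, adjusted p = 0.632). A second Rab27a set that was too dim to be tested read 15.0, 26.1, 26.1 and 19.6 on the persimmon peel diet, against 31.5, 41.9, 29.1 and 38.4 on the control diet. With no filter on dim sets, 0 of the 31 untested Rab sets passed.

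The dimmer sets of a Rab gene were compared with its brightest set, liver by liver. Of 27 pairs in 18 genes, 22 had a negative difference (81.5%), against 66.6% of the 2981 pairs of all genes. Pairs of the same gene share its brightest set, so these pairs are not all independent. The median difference was -0.20 on the log2 scale for Rab genes and -0.14 for all. In limma's fit over all pairs 4 Rab differences were lower and 0 higher (8 and 0 at an unadjusted p), against 15.3% lower and 1.91% higher over all pairs. The 4 of 27 stood near the share of the whole array. The 4 were the ones given for Rab5a, Rab5b and Rab10. Of these, the difference of the dimmest Rab5b set rests on a set tested only through its level on the control diet. Next came Rab6a (adjusted p = 0.0516) and Rab20, an early endosome Rab of macrophages and epithelia, with -0.43 (SE 0.16, adjusted p = 0.0886). The largest of the 5 positive differences was that of Rab30 (log2 difference 0.27, SE 0.22, adjusted p = 0.417). Without persimmon peel diet replicates 1 and 3 the number was 2, Rab5a and the dimmest set of Rab5b, with Rab10 at an adjusted p of 0.0608.

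**Figure D3:**
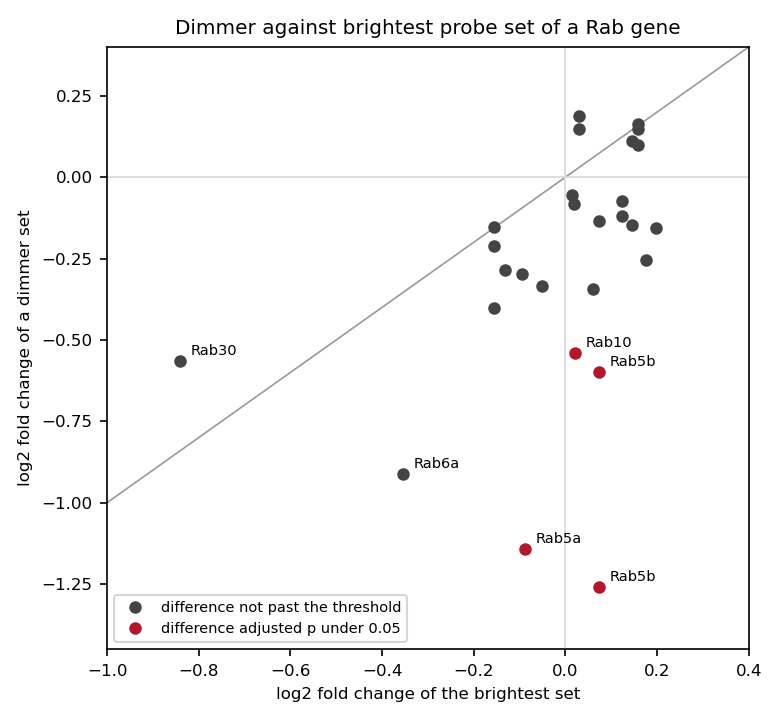
Log2 fold change (persimmon peel minus control diet) of each dimmer probe set of a Rab gene (vertical axis) against that of the gene's brightest set (horizontal axis), 27 pairs in 18 genes, with the line of equal change. Red points are the 4 pairs whose difference had an adjusted p under 0.05, and 22 of the 27 points lie under the line.

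**Figure D4:**
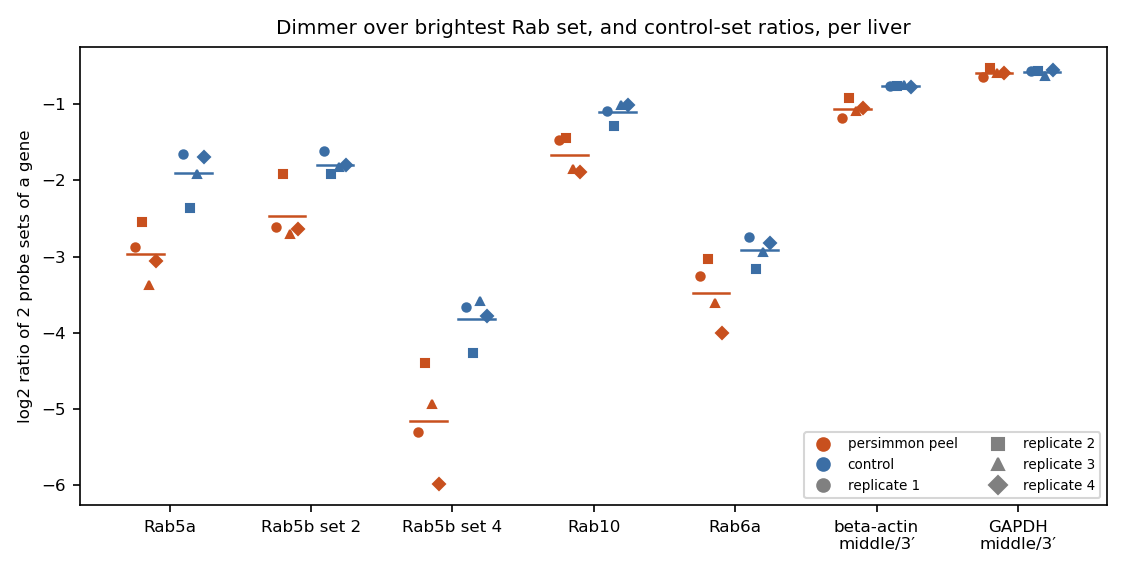
Log2 ratio of a dimmer to the brightest probe set for 5 Rab pairs, and of the middle to the 3′ control sets of beta-actin and GAPDH, for each liver (symbols give the replicate number, persimmon peel diet left of control diet, bars are means). The Rab5a ratios averaged -2.96 on the persimmon peel diet and -1.91 on the control diet, the beta-actin ratios -1.06 and -0.76, and the GAPDH ratios overlapped.

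The machinery that loads and switches Rabs was read together with Rab effectors, in 142 tested sets of 105 genes, out of 146 genes listed. Of these sets 5 were lower (3.52%) and 1 was higher (0.704%), against the 4.53% and 0.425% of all tested sets. The median log2 fold change was 0.04. In the group that attaches prenyl groups to Rabs and extracts them from membranes, 3 of 11 sets were lower and 0 higher (4 and 0 at an unadjusted p). Gdi2, a GDP dissociation inhibitor, had 413 ± 73.0 on the persimmon peel diet and 681 ± 59.4 on the control diet in its dimmer set (SD, n = 4 each), which is -0.74 as a log2 fold change in limma (SE 0.12, adjusted p = 0.0047), with 0.01 in its brighter set (adjusted p = 0.952). Chm, the escort protein that presents Rabs for prenylation, had 31.7 ± 6.67 on the persimmon peel diet and 57.6 ± 8.43 on the control diet in its leading set (SD, n = 4 each), which is -0.87 as a log2 fold change in limma (SE 0.20, adjusted p = 0.022), and 0.17 in the other set. The Chm set was tested only through its level on the control diet, and with no filter it did not pass (0.0676). Arl6ip5, a relative of the prenylated Rab acceptor, was lower in its dimmer set (-0.38, SE 0.10, adjusted p = 0.0471, and 0.0611 with no filter) and had -0.00 in the brighter.

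Among exchange factors, which load GTP, 0 of 40 sets were lower or higher in limma (3 lower and 3 higher at an unadjusted p), and the smallest p was that of the dimmest set of Sbf1 (-0.76, adjusted p = 0.0689). Among GTPase-activating TBC proteins and their relatives, 1 of 30 sets was lower, the dimmer set of Tbc1d23 (-0.81, SE 0.15, adjusted p = 0.0073). The dimmer set of Tbc1d15, a GTPase-activating protein for Rab7, did not pass (-0.39, adjusted p = 0.0552). Tbc1d4 differed by 0.00 on the log2 scale (SE 0.12, adjusted p = 0.991). Effectors had 1 lower and 1 higher set of 61 (9 and 4 at an unadjusted p). For each of these lists, the shares of all tested sets were 4.53% lower and 0.425% higher (13.4% and 6.19% at an unadjusted p). Vps35, the retromer subunit that Rab7 recruits, was lower (-0.37, SE 0.09, adjusted p = 0.0291). Mlph, the melanophilin that links Rab27a to myosin, was higher, with 54.8 ± 4.50 on the persimmon peel diet and 28.1 ± 10.6 on the control diet (SD, n = 4 each), which is 1.04 as a log2 fold change in limma (SE 0.25, adjusted p = 0.0291). The Mlph set was tested only through its level on the persimmon peel diet, and with no filter it did not pass (0.0894), so that 0 regulator sets were then higher and 3 were lower. Optn, an effector of Rab8, did not pass (-0.35, adjusted p = 0.0571). Over these lists the lower sets numbered 8 when replicate 2 of the persimmon peel diet was left out, 3 when its replicate 4 was, and 2 when its replicate 1 or control replicate 1, 3 or 4 was. The higher call was lost on leaving out replicate 1, 3 or 4 of the persimmon peel diet or replicate 1 or 3 of the controls, and leaving out replicate 2 of the persimmon peel diet gave 4 higher sets.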

How the data were processed

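Liver RNA of 4 rats per diet was measured on 1-colour Affymetrix arrays. Each probe set has 1 deposited intensity per array, in linear units, and MAS5 is named for it in the submitters' processing notes with no version. How the arrays were scaled is not given in the sources used, and detection calls were not used here. Array medians ran from 33.2 to 39.2 units, and 0 columns of the table were left unused. The labels give 4 numbered livers per diet, and each array was treated as 1 animal. Replicate error here is the spread between arrays, whose number limits the precision.

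Symbols came from the platform annotation and were updated by gene number through a RefSeq table of GRCr8, in which all 97 member sets were found with the same symbol. Intensities were log2-transformed as deposited, without rescaling and without a pseudocount. The 57 control sets and the dimmest 50% of sets by mean log2 value were left out, which left 15521. Diets were compared with limma 3.58.1 in R 4.3.3 (lmFit, eBayes with an intensity trend, two-sided), and p-values were adjusted by Benjamini-Hochberg over all tested sets. Each tested dimmer set of a gene was also compared as log2 difference from the gene's brightest set, over 2981 pairs. Every adjusted p of a set or pair is from these fits and every SE is limma's moderated one. Both fits were tested on simulated data with planted shifts. The noise there was independent between sets, with no array or RNA quality effect, so that test cannot bear on such effects here.

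The members, the lists of Rab regulators and of cell type markers, the alternatives and the rule for naming were chosen with earlier results of these data known. The rule describes every set of a gene with a called set or difference, the 3 sets with the smallest p in each direction, 16 fixed Rabs, and of the regulator lists the called genes and up to 3 others. Alternatives tried were no filter or the upper 30% by signal, quantile normalization or median centring, a pseudocount of 16, no intensity trend, array weights, a replicate block, the beta-actin ratio as a covariate, arrays left out, the brightest set of each gene alone, the dimmest pair alone and the unadjusted p. Genes named outside the rule were chosen after their values were seen.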

Additional observations from a re-analysis of the deposited data

Results flagged for a closer look

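Of 132 groups of 4 livers, 1 per diet for each tested Rab set, 4 held a liver far from the other 3 by Dixon's ratio of gap to range on the log2 scale, at its critical value for 95%. Chance flags about 1 in 20 groups. In the second set of Rab5b by signal, persimmon peel diet replicate 2 read 250 (249.776 units), with the other 3 livers between 162 and 170. In the set of Rab24, a Rab of autophagosomes, persimmon peel diet replicate 3 read 367, with the others between 294 and 302. On the control diet, replicate 4 read 1754 in the brighter set of Rab2a, with the others between 1516 and 1538. The same liver read 155 in the dimmer set of Rab30, with the others between 64.8 and 73.3.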

How the results depend on the processing

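The 7 lower Rab sets numbered 4 with no intensity trend, 16 at an unadjusted p, and 0 with the beta-actin covariate, without replicates 1 and 3 of the persimmon peel diet, or with the brightest set of each gene alone. Leaving out 1 array gave 3 to 9, and each other alternative 5 to 8. Higher Rab sets numbered 1 after quantile normalization or at an unadjusted p, and 0 with any 1 array left out. The 4 lower differences between sets numbered 0 with the covariate and 4 to 5 with 1 array left out. Without replicates 1 and 3 of the persimmon peel diet they numbered 2, Rab5a and the dimmest set of Rab5b. That Rab5b set was tested only through its level on the control diet. Of regulators and effectors, the 5 lower and 1 higher set became 3 and 0 with no filter. The lower count was 3 with no intensity trend and 8 with array weights, and the higher count 0 in the upper 30% by signal. Both were 0 with the covariate and without replicates 1 and 3 of the persimmon peel diet. Leaving out 1 array gave 2 to 8 lower and 0 to 4 higher.

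Replicate numbers did not pair the livers, with correlations of 0.02, -0.08, 0.05 and 0.04 between deviations of same-numbered arrays. With the replicate number as a block, 6 Rab sets, 4 differences and 4 regulator sets were lower, and 0, 0 and 2 were higher. Under the block the adjusted p was 0.076 for Rab1a and 0.059 for the brighter Rab6a set, which lost their calls, and 0.0141 for the brighter Rab30 set, which gained one.

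Of 738 refits of 40 single sets and differences, 656 kept direction and side of the threshold, 49 lost a call, 9 gained one and 24 changed sign. The causes were not tested. Only the 7 lower sets and the 4 lower differences had a call to lose, and the others could keep their side by staying uncalled. Rab1a kept its call in 1 of 8 fits with an array left out and in 3 of 11 other settings. The dimmer Rab5a set kept its call in 8 of 8 and in 8 of 10. With the covariate the sign changed for Rab1b (-0.1885), Rab30 (0.0884), Rab5b (-0.1236 in the brightest and 0.0569 in the second set), Rab7a (0.2334), Rab10 (-0.0283), Rab11a (-0.3364), Rab14 (0.0219 and 0.1285), Rab8a (-0.2086) and 2 Rab5b differences (0.1806 and 0.1143). Without replicates 1 and 3 of the persimmon peel diet it changed for Rab1b (-0.0625), Rab11a (-0.1092) and Rab8a (-0.0539). The brighter Rab10 set read -0.0072 with array weights and -0.0521 to 0.0861 with 1 array left out, negative without control replicate 1 or without replicate 3 or 4 of the persimmon peel diet (-0.0042, -0.0521 and -0.0188). Rab11a read -0.0013 after median centring and -0.0571 to 0.0855 with 1 array left out, negative without control replicate 3 or replicate 3 of the persimmon peel diet (-0.0012 and -0.0571). With 1 array left out Rab8a read -0.0006 to 0.0777 and 1 Rab1b set -0.0086 to 0.1662. Signals near the tested minimum of 34.4 units limit the dimmest sets.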

Other observations

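Of the member genes, 6 had tested sets of both annotation kinds, at least 1 tied to a RefSeq mRNA record and at least 1 tied to another record, a split chosen after the values were seen. The RefSeq-based set had the more negative log2 fold change in 4 of them, Rab10 (by -0.56), Rab2a (-0.15), Rab5a (-1.06) and Rab7a (-0.20), in each of which it was also the dimmer set. In Rab11a (0.10) and Rab14 (0.03) it was not the more negative one. The median difference was -0.18 over the 6 genes and -0.14 over 376 genes of the array with both kinds, in 63.6% of which the RefSeq-based set was the more negative.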
